A study of Homo sapiens with 6 samples.

Results

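The colony-stimulating factors are the secreted ligands that drive the production and survival of macrophages and granulocytes, and 4 genes encode the ligands described here. CSF1 (M-CSF) and IL34 (interleukin-34) both act through the receptor CSF1R on monocytes and macrophages. CSF2 (GM-CSF) acts through the receptor formed by CSF2RA and CSF2RB, and CSF3 (G-CSF) acts on neutrophils and their precursors through CSF3R. CSF2 and CSF3 are known as inducible genes whose promoters respond to NF-κB, and their messages carry AU-rich elements that mark them for rapid decay. CSF1 is produced more steadily by many epithelial and stromal cells, and carcinomas that release these ligands can draw myeloid cells into a tumor.

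The 4 genes were taken by symbol from the deposited table, where each has 1 of the 30267 rows. RNA-seq was performed on SW839 cells, an established renal cell carcinoma (RCC) line, with 3 libraries of cells carrying an RNF25 hairpin (shRNF25) and 3 libraries of cells carrying the pLKO control vector (shControl). RNF25 is the E3 ubiquitin ligase that the study places upstream of NF-κB. According to the study's methods, stable lines were made by lentiviral infection and puromycin selection. All 6 samples carry the treatment label shRNA. The treatment text speaks of the shRNF25 plasmid for the control libraries as well, so the groups rest on titles, genotype labels and library names. The 3 shRNF25 libraries share the name stem shRNF25B, so they give no second hairpin to compare, and the shControl libraries have names of 3 different forms. No batch is named, and one running along the groups could not be told apart from RNF25 knockdown. The labels do not tie the libraries to separate cultures, so p-values measure the spread between these libraries, which may be technical.

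Each library held 18647460 to 19943154 reads on genes, and the values are normalized counts, that is, reads divided by a library size factor. The target gene RNF25 had normalized counts of 694.2, 533.5 and 536.4 in shControl and 214.1, 245.7 and 265.0 in shRNF25, with no overlap between groups. Its log2 fold change was -1.27 (standard error 0.150, limma adjusted p = 0.000585). Epithelial markers were high in both groups, with KRT8 between 22206 and 38009 and EPCAM between 4205 and 5912. The kidney lineage factor PAX8 lay between 76.7 and 140.3, PAX2 was not listed, and the hypoxia marker CA9 lay between 1.85 and 50.7. Of the 12 myeloid and lymphoid markers, 10 were listed and summed to 43.2 to 56.4 in shControl and 72.0 to 100.2 in shRNF25. CD14 stayed between 2.16 and 8.31 and CD68 between 0.953 and 3.32, while FCGR1A (2.22) and ITGAM (0.86) had positive log2 fold changes past the criteria given next. ITGAM was called in 6 of 17 alternatives and missed, for example, without shRNF25 replicate 1 (limma adjusted p = 0.202). FCGR1A was called in 14 of 17, and not without shRNF25 replicate 1 or 3 (limma adjusted p = 0.0630 and 0.0523). The endothelial marker PECAM1 lay between 349.9 and 549.4, above PAX8 in every library, and was not called. CDH5 lay between 73.0 and 198.6 in shControl and between 3.64 and 8.31 in shRNF25. KDR lay between 17.3 and 88.4 and LUM between 6.16 and 28.1, and 4 other endothelial and fibroblast markers did not pass the filter. Among the 4 tested ones, CDH5 was lower (-4.12) and KDR higher (1.78). Among 6 tested renal and epithelial markers VIM was higher (1.31). CDH5 reached the filter given next through its shControl libraries alone and FCGR1A through its shRNF25 libraries alone, so both had to differ. The part of these markers in the results was not tested. RNA from bulk cultures cannot separate fewer cells expressing a gene from less of its RNA per cell.

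CSF2 and CSF3 were far lower after RNF25 knockdown, CSF1 was modestly lower, and IL34 was barely detected in any library. A gene was called where its limma adjusted p was under 0.05 and it changed 1.5-fold or more, the criteria of the study. All fold changes are shRNF25 over shControl on the log2(normalized count + 1) scale, where the added 1 shrinks the change of genes with few reads. To be tested, a gene had to reach 10 normalized counts in 3 or more libraries, which 16554 genes and 3 of the 4 ligands met. Of the 4 ligands, 2 were called lower (CSF2 and CSF3), CSF1 passed the p-value but not the fold, and IL34 was not tested. Among all tested genes, 7.1% were called lower and 8.65% were called higher. CSF3 passed the filter through its shControl libraries alone, as none of its shRNF25 values reached 10, so a gene that passed in this way had to differ.

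**Figure D1:**
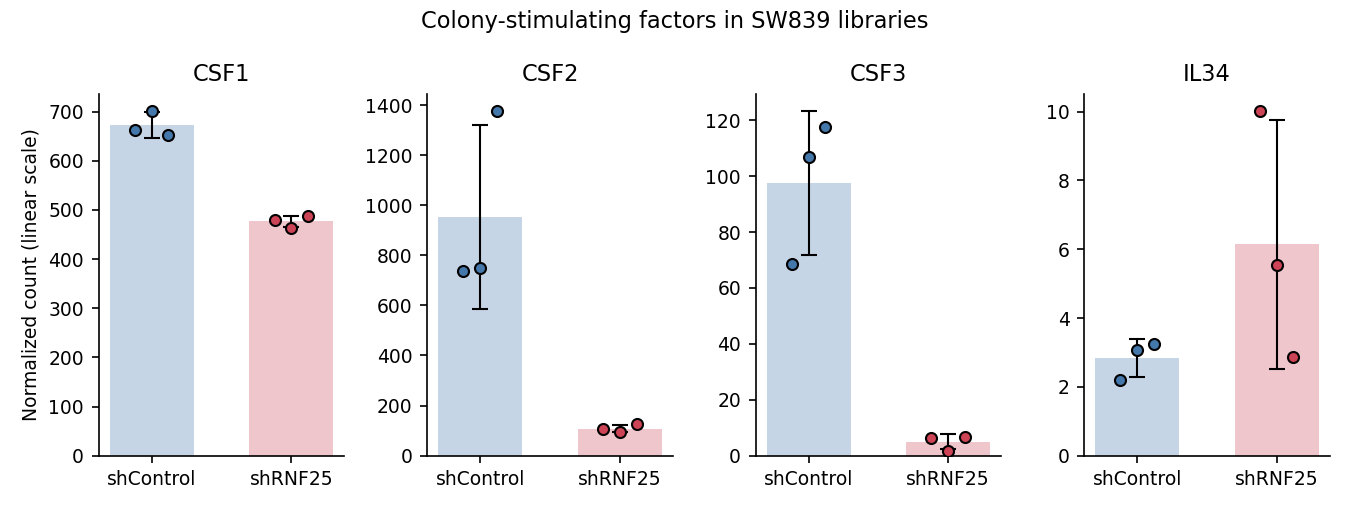
Normalized counts (linear axes, each starting at 0) of CSF1, CSF2, CSF3 and IL34 in the 6 SW839 libraries, with points for libraries, bars for group means and whiskers for the SD of n = 3. For CSF1, CSF2 and CSF3 all shRNF25 points lie under all shControl points, while the IL34 groups overlap, with all 6 values between 2.21 and 10.0.

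CSF2 encodes GM-CSF, a growth factor for granulocytes, macrophages and dendritic cells. The gene lies at chr5:132073790-132076170 on the plus strand (GENCODE 29, GRCh38), and no other annotated gene overlaps it. The 250 bases before its RefSeq start, at chr5:132073539-132073788 (GRCh38.p14, plus strand), are shown. A promoter sequence was available for 1 of the 4 ligands, CSF2, so the promoters of the others were not searched. The capitals mark GAGATTCC, the core of the CK-1 element known from cytokine promoters, and then a stretch that matches a κB-like pattern, GGG and CC with any 5 bases between them, on the opposite strand.

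CSF2 promoter: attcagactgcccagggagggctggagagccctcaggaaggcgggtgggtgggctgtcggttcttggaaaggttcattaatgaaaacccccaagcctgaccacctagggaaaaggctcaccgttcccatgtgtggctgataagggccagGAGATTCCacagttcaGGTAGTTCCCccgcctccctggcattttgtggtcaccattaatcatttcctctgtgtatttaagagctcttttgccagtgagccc

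The CK-1 core spans bases 101 to 94 before the start and was found, on either strand, in 0.735% of the 35116 promoters of the table over the same length. The κB-like match spans bases 85 to 76, but this loose pattern occurs in 54.4% of promoters. The RUNX pattern TGTGGT occurs at bases 58 to 53 and in 11% of promoters. The AP-1 pattern TGANTCA was not found in this window and occurs in 6.57% of promoters. These are matches of letters and not measured binding.

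CSF2 had normalized counts of 736.2, 748.0 and 1377 in shControl replicates 1, 2 and 3. In shRNF25 replicates 1, 2 and 3 the counts were 105.7, 94.2 and 124.9. The groups were far apart, with a single high control library, replicate 3, and knockdown libraries close to each other. The mean fell from 953.8 ± 366.7 (SD, n = 3) to 108.3 ± 15.5 (SD, n = 3), or 11.3% of shControl. This is a log2 fold change of -3.07 (standard error 0.239, 95% interval -3.61 to -2.53, limma adjusted p = 6.95e-05). It ranked 42 among the 16554 tested genes, counted from the largest fall. Without shControl replicate 3 the log2 fold change was -2.78, so the fall does not rest on the high library. The two-sided exact permutation test over the 6 libraries gave p = 0.1, the smallest value that this design allows, for each of CSF1, CSF2 and CSF3.

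CSF3 encodes G-CSF, the main growth factor for neutrophils. It lies at chr17:40015361-40017813 on the plus strand, with no overlapping gene in the annotation. In shControl its normalized counts were 68.5, 106.7 and 117.6, from 62, 104 and 109 reads. In shRNF25 the counts were 6.38, 1.85 and 6.67, from 7, 2 and 7 reads. The groups were far apart, and each knockdown library held fewer than 10 reads of the gene. The shControl mean was 97.6 ± 25.8 (SD, n = 3) and the shRNF25 mean 4.97 ± 2.71 (SD, n = 3). The log2 fold change of CSF3 was -4.14 (standard error 0.413, 95% interval -5.07 to -3.21, limma adjusted p = 0.000254). With 16 knockdown reads in all, the ratio of shControl over shRNF25 was 19.8 with an exact 95% counting interval of 11.96 to 35.1, an interval that covers counting error only. A pseudocount of 5 gave a smaller log2 fold change of -3.37, which still passed the threshold.

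CSF1 encodes M-CSF, the survival factor of the macrophage lineage. It lies at chr1:109910242-109930992 on the plus strand and overlaps no other annotated gene. Its normalized counts were 663.3, 701.8 and 651.9 in shControl and 479.3, 463.6 and 487.1 in shRNF25. The values within each group were tight, with coefficients of variation of 3.89% and 2.51%, and the groups did not overlap. The shControl mean was 672.3 ± 26.2 (SD, n = 3), and the shRNF25 mean of 476.7 ± 11.96 (SD, n = 3) was 70.9% of it. The log2 fold change of -0.49 (standard error 0.106, 95% interval -0.73 to -0.26, limma adjusted p = 0.0109) corresponds to a fold of 1.41, under the 1.5 that a call needs. At the p-value alone, 10.8% of tested genes were lower. Without overlap between groups, 21.8% were lower (42.5% in either direction), so meeting either criterion was common among all genes. By size, CSF1 ranked 2042 among the 16554 tested genes, counted from the largest fall.

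The size of the CSF1 change depends on the scaling. When reads were divided by the library total in place of the deposited size factors, its log2 fold change was -0.29 with a limma adjusted p of 0.0853, and the median of all tested genes moved from -0.01 to 0.19. Relative to that median, CSF1 stood at -0.48 under both scalings. Without shRNF25 replicate 1, 2 or 3 the limma adjusted p of CSF1 was 0.0618, 0.0741 or 0.0593, with log2 fold changes of -0.50, -0.48 and -0.51. Without shControl replicate 1, 2 or 3, in fits that also had 1 library fewer, it was 0.0019, 0.0319 or 0.0140. Across all tested genes the shRNF25 libraries spread less, with a library weight by group of 2.49 against 0.402 for shControl.

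IL34, the second ligand of CSF1R, lies at chr16:70579895-70660682 on the plus strand and overlaps no other annotated gene. It had 2, 3 and 3 reads in shControl and 11, 6 and 3 reads in shRNF25, or normalized counts of 2.21, 3.08 and 3.24 against 10.0, 5.54 and 2.86. The groups overlapped, and the 2 higher values came from shRNF25 replicates 1 and 2. The ratio of shRNF25 over shControl was 2.17 with an exact 95% counting interval of 0.916 to 5.70. The log2 difference of 0.78 had a two-sided exact permutation p of 0.3. When genes of any level were tested, the limma adjusted p was 0.351. A difference in IL34 was therefore not detectable at this depth, and the interval does not exclude a several-fold rise.

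The 4 ligands were next compared with each other per length, as normalized counts per kb of annotated exon. In shControl the order was CSF2 with 1212 ± 466.0 (SD, n = 3), CSF1 with 124.1 ± 4.83 (SD, n = 3), CSF3 with 44.0 ± 11.6 (SD, n = 3) and IL34 with 1.27 ± 0.25 (SD, n = 3). Each gene lay above the next in that order in every library. In shRNF25 the levels were 137.6 ± 19.7 (SD, n = 3) for CSF2, 88.0 ± 2.21 (SD, n = 3) for CSF1, 2.75 ± 1.62 (SD, n = 3) for IL34 and 2.24 ± 1.22 (SD, n = 3) for CSF3. By this length CSF2 kept the highest level and stayed above CSF1 in every library, while the values of CSF3 and IL34 overlapped.

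The level of CSF2 per length was 7.64, 7.34 and 14.5 times that of CSF1 in shControl and 1.52, 1.40 and 1.76 times in shRNF25. With the length of 1 annotated transcript of each gene, that with the longest 3′ untranslated region, the knockdown ratios were 1.18, 1.09 and 1.37. The margin of CSF2 over CSF1 in shRNF25 thus depends on the length used, and shorter CSF1 transcripts were not examined. CSF2 made up 87.0% ± 3.52 (SD, n = 3) of the summed level per length of the 4 ligands in shControl and 59.5% ± 2.86 (SD, n = 3) in shRNF25. The share of CSF1 went from 9.65% ± 2.95 (SD, n = 3) to 38.3% ± 2.74 (SD, n = 3). The ligand mixture therefore held relatively more CSF1 message in the knockdown libraries, although the CSF1 level itself was lower.

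**Figure D2:**
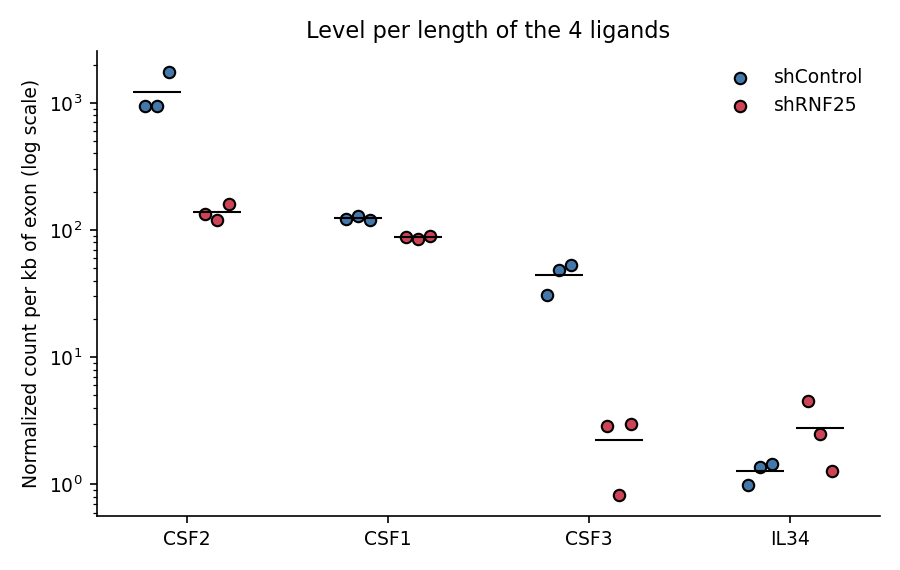
Normalized count per kb of annotated exon (log axis) of the 4 ligands, with 1 point per library and a line at each group mean of n = 3. In shControl the 4 genes form separate levels, and in shRNF25 the CSF3 points lie at 0.832 to 3.01, overlapping those of IL34.

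The changes of the 3 tested ligands were compared within libraries, as the log2 difference between a pair of genes, which no library scaling affects apart from the pseudocount. The difference of CSF2 minus CSF1 went from 0.44 ± 0.55 (SD, n = 3) in shControl to -2.14 ± 0.17 (SD, n = 3) in shRNF25. That of CSF3 minus CSF1 went from -2.81 ± 0.41 (SD, n = 3) to -6.46 ± 0.78 (SD, n = 3). For both pairs the groups did not overlap, and both CSF2 and CSF3 stood lower against CSF1 in every shRNF25 library than in any shControl library. CSF3 minus CSF2 was -3.25 ± 0.39 in shControl and -4.32 ± 0.65 in shRNF25 (SD, n = 3 each). The difference of -1.07 shrank to -0.34 with a pseudocount of 5. Each of the 3 pairs had a two-sided exact permutation p of 0.1 and the same value after adjustment over the pairs, the smallest that 3 libraries against 3 allow.

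The choice of these genes used no sequence feature, and their messages differ widely in AU-rich elements. Such elements, built from repeats of ATTTA in the 3′ untranslated region, are bound by decay factors of the tristetraprolin family. In the GENCODE 29 transcript with the longest such region, CSF2 had 8 ATTTA pentamers in 318 bases, CSF3 had 7 in 854 bases, CSF1 had 4 in 2154 bases and IL34 had 0 in 495 bases. At 25.2 pentamers per kb, CSF2 was in the top 0.0807% of the 16110 genes with such a region, CSF3 with 8.20 per kb in the top 1.78%, and CSF1 with 1.86 per kb in the top 44.3%. By count alone the ranks were less extreme. As many pentamers or more were found in 18.7% of these genes for CSF2, 21.7% for CSF3 and 36.1% for CSF1. The 30 bases with the most pentamers are shown for the 3 genes that have any, with the pentamers in capitals. Each stretch is the richest of its region, and the regions differ in length, so the stretches do not compare density over the whole region.

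CSF2, from base 220 of the region: ttttaaaatATTTATTTATTTATTTATTTA
CSF3, from base 16 of the region: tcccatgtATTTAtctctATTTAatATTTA
CSF1, from base 2073 of the region: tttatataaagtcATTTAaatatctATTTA

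The CSF2 stretch holds 5 overlapping pentamers, that of CSF3 holds 3 and that of CSF1 holds 2. The densest genes, CSF2 and CSF3, are the ones that were called lower. With 4 genes this is a description, and no relation between the motif and the change was tested.

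Of the 3 tested receptor genes of these ligands, CSF2RA alone was called, and it was lower, beside 7.1% of all tested genes called lower. Of 6 receptor genes in the list, CSF3R and the IL34 receptor PTPRZ1 were not listed, and CSF2RB had 1 to 3 reads per library. CSF2RA, the ligand-binding chain for GM-CSF, had normalized counts of 136.0, 151.9 and 136.0 in shControl and 100.2, 95.1 and 68.6 in shRNF25. The groups did not overlap, and the log2 fold change was -0.69 (standard error 0.184, limma adjusted p = 0.0265). That call was lost, with a limma adjusted p of 0.0942, when reads were scaled to the library total, and with one of 0.0553 to 0.122 without shControl replicate 2 or without shRNF25 replicate 1, 2 or 3. CSF2RA was also not called with library weights by group, which left the call in 11 of 17 alternatives. CSF1R, the receptor of CSF1 and IL34, lay between 15.3 and 38.9 in all libraries with overlapping groups (log2 fold change -0.56, limma adjusted p = 0.244). The proteoglycan SDC1, which can bind IL34, was abundant at 3875 to 5751 and had a log2 fold change of 0.16 (limma adjusted p = 0.471).

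Other genes around the ligands were followed in 7 lists. They cover receptors, other hematopoietic growth factors, receptor signaling, promoter-binding transcription factors, mRNA decay and stability factors, inducing cytokines and ligand release. The lists hold 95 symbols, of which 88 were listed and 78 passed the filter. Of these, 22 were called lower (28.2%) and 2 were called higher (2.56%), beside 7.1% and 8.65% of all tested genes, and the median log2 fold change was -0.30 beside -0.01 for all tested genes. Scaling to the library total left 14 lower and 3 higher. The lists were chosen with results of these data known and overlap the NF-κB genes that the study examined, so the counts describe them and are no independent evidence of their direction.

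**Figure D3:**
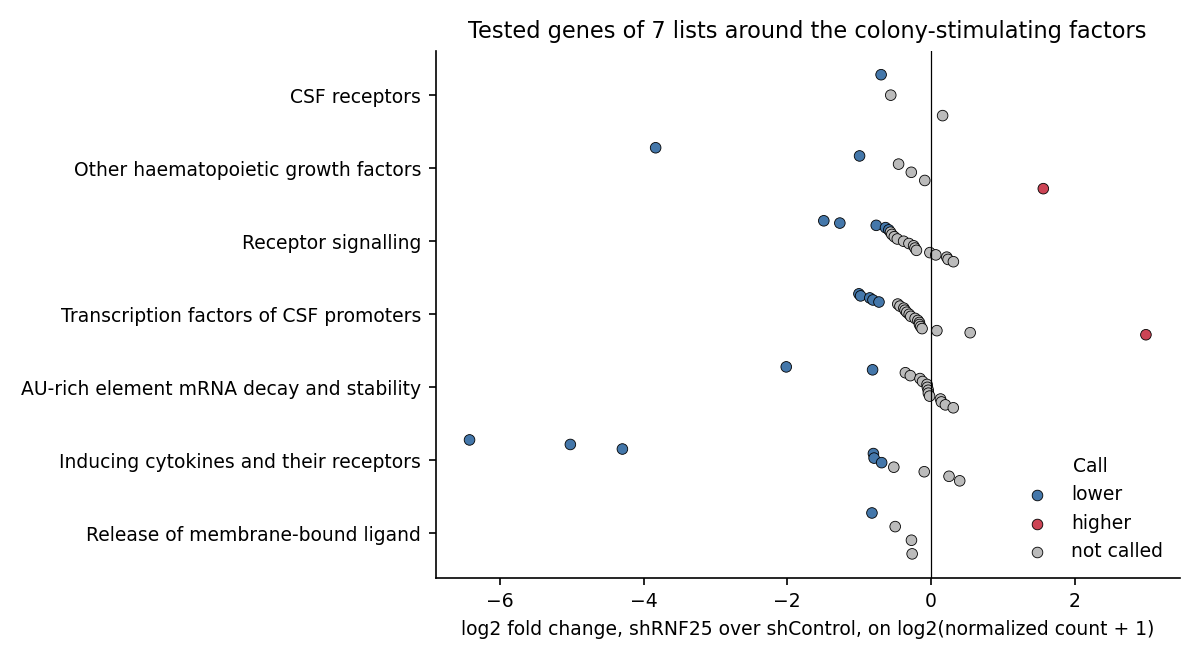
log2 fold change (shRNF25 over shControl, log2(normalized count + 1) scale) of the 78 tested genes in 7 lists, with 1 point per gene and color for the call. Most called genes lie to the left, and the 2 called higher are KITLG at 1.56 and FOS at 2.99.

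Among other hematopoietic growth factors, 2 of 6 tested genes were called lower and 1 was called higher, beside 7.1% and 8.65% of all tested genes. IL6, which supports myeloid and plasma cells, had the largest fall of this list at -3.83 (standard error 0.154, limma adjusted p = 1.91e-06). IL11, a cytokine of the same receptor family, fell from 166.1 ± 26.4 to 82.8 ± 11.6 (SD, n = 3 each). KITLG, the stem cell factor that acts through KIT, moved the other way, with normalized counts of 157.0, 109.8 and 209.4 in shControl and 437.4, 455.3 and 474.7 in shRNF25. Its log2 fold change was 1.56 (standard error 0.213, limma adjusted p = 0.00127), so the growth factors for blood cells did not change in a single direction. IL3, IL5, EPO, THPO and FLT3LG were not listed or did not pass the filter.

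Among the cytokines and receptors that induce CSF2 and CSF3, 6 of 10 tested genes were called lower, beside 7.1% of all tested genes. No gene was called higher by limma, edgeR or DESeq2, and 2 were higher at an unadjusted p below 0.05. At the limma adjusted p alone, 10.5% of all tested genes were higher. The share at the unadjusted p is at least as large and was not computed, so such counts, here and below, have no background. The ligands IL1B (-6.42), IL1A (-5.02) and TNF (-4.30) had the largest falls, and TNF, like CSF3, passed the filter through its shControl libraries alone. TRAF3IP2, the adaptor of interleukin-17 receptors, fell from 859.3 ± 43.8 to 492.6 ± 21.6 (SD, n = 3 each), and its log2 fold change was -0.80. The receptor genes IL1R1, TNFRSF1A, IL17RA and IL17RC did not pass, with log2 fold changes between -0.52 and 0.40. The called genes were thus mainly ligands and adaptors. IL1RAP, the accessory chain of the interleukin-1 receptor, was the called receptor gene (-0.69, limma adjusted p = 0.0252). That call was lost with scaling to the library total (limma adjusted p = 0.0570), without shControl replicate 1 (log2 fold change -0.50), and without shControl replicate 2 or shRNF25 replicate 1, 2 or 3 (limma adjusted p of 0.0604 to 0.111). NFKBIZ, a nuclear cofactor of NF-κB, completed the count (-0.79), and fell short of the fold with scaling to the library total (-0.58).

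Of 21 transcription factors known from the promoters of these genes, 5 were called lower and 1 higher, beside 7.1% and 8.65% of all tested genes. FOS, an AP-1 subunit, had 157.0, 181.6 and 564.5 in shControl and 1883, 2088 and 2087 in shRNF25. The groups were far apart, with shControl replicate 3 the highest control as for CSF2, and the log2 difference was 2.99 (standard error 0.397, limma adjusted p = 0.00114). NFATC1, at 49.5% of its shControl mean, ETS1 (-0.98) and REL (-0.85), an NF-κB subunit, had the largest falls. ETS1, which is abundant in these cells, had 5597, 5120 and 4929 in shControl and 2558, 2628 and 2741 in shRNF25. RELA, the p65 subunit of NF-κB, had a log2 fold change of -0.43 (limma adjusted p = 0.148) with overlapping groups, and NFKB1, which gives p50, had 0.08 (limma adjusted p = 0.651). Leaving out shRNF25 replicate 1, 2 or 3 took the limma adjusted p of REL to 0.0537 to 0.0836.

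Of 15 factors listed for mRNA decay and stability, not all of which bind AU-rich elements, 2 were called lower, beside 7.1% of all tested genes. No gene was called higher by limma, edgeR or DESeq2, and 1 was higher at an unadjusted p below 0.05. ZC3H12A, the endonuclease Regnase-1 that degrades cytokine messages, had normalized counts of 2496, 3169 and 3145 in shControl and 671.5, 581.8 and 962.7 in shRNF25. Its log2 fold change was -2.01 (standard error 0.186, limma adjusted p = 0.000175). ZFP36L1, a relative of tristetraprolin, had a log2 fold change of -0.81 (limma adjusted p = 0.0293), which missed the threshold with scaling to the library total, at 0.0579, and was lost without any library other than shControl replicate 2. ZFP36, the gene of tristetraprolin itself, had a log2 fold change of -0.02 (limma adjusted p = 0.959). The median of this list was -0.05, close to that of all genes.

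Downstream of the receptors, 5 of 19 tested signaling genes were called lower by limma, beside 7.1% of all tested genes. By edgeR 4 were called lower, and by DESeq2 4. No gene was called higher by limma, edgeR or DESeq2, and 0 were higher at an unadjusted p below 0.05. PIM1, a kinase induced by cytokine receptors, fell from 2713 ± 429.0 to 957.8 ± 72.2 (SD, n = 3 each), and its log2 fold change was -1.49. PIK3CD (-1.27), LYN (-0.76) and IRS2 (-0.63) followed, and LYN and IRS2 were not called with scaling to the library total. Their calls were also lost without shRNF25 replicate 1, with limma adjusted p values of 0.0526 and 0.0620, and that of IRS2 without shControl replicate 3 (log2 fold change -0.50) or shRNF25 replicate 3 (limma adjusted p = 0.0603). IRS2 was called in 11 of 17 alternatives. The remaining call, CISH (-0.59), lay close to the 1.5-fold threshold. It was made in 6 of 17 alternatives and by neither edgeR nor DESeq2. STAT3 and STAT5B had 0 to 4 reads per library and STAT5A was not listed, so these STAT genes are not interpreted here. For ligand release, 1 of 4 tested genes was called lower, beside 7.1% of all tested genes. RHBDF2, the iRhom partner of the sheddase ADAM17 that cuts cell-surface CSF1, had 3138, 3401 and 3223 in shControl and 1845, 1841 and 1834 in shRNF25, a log2 fold change of -0.82 (limma adjusted p = 0.000532). ADAM17 itself had a log2 fold change of -0.26 (limma adjusted p = 0.110).

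The genes around each ligand were also examined. Of 28 tested genes that start within 250 kb of a ligand, 3 were called lower and 1 higher, beside 7.1% and 8.65% of all tested genes. The 3 called lower were the 3 tested neighbors of CSF2, too few to read as a pattern of the region, namely PDLIM4 (-1.45), P4HA2 (-0.99) and SLC22A4 (-0.64), which start 184 to 222 kb downstream. P4HA2, a collagen prolyl hydroxylase, had 1228, 1602 and 1579 in shControl and 697.1, 693.6 and 818.8 in shRNF25. PDLIM4, an actin-associated LIM protein, had 424.5, 604.3 and 654.0 in shControl and 203.2, 206.9 and 192.5 in shRNF25. P4HA2 overlaps the other two on the opposite strand without shared exon bases, and whether the counting used strand is not given in the sources used here. SLC22A4 was called in 7 of 17 alternatives and missed with limma adjusted p values of 0.0804 to 0.159 without any library other than shControl replicate 1, whereas PDLIM4 and P4HA2 were called in all 17.

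Around CSF3, 0 of 11 tested neighbors were called by limma, edgeR or DESeq2 and 2 had an unadjusted p below 0.05, with log2 fold changes between -0.36 and 0.39. PSMD3, the closest tested gene upstream at 34.6 kb, had a log2 fold change of -0.15 (limma adjusted p = 0.380), and THRA at 42.9 kb downstream had -0.13 (limma adjusted p = 0.475). CSF3 was thus the called gene of its region. Around IL34, 0 of 9 tested neighbors were called by limma, edgeR or DESeq2, and at an unadjusted p below 0.05 there was 1 in each direction. Around CSF1, 1 of 5 was called, GSTM2 at 242 kb upstream, which was higher with a log2 fold change of 0.61 (limma adjusted p = 0.0112) and was not called without shControl replicate 2 (0.52) or without shRNF25 replicate 1, 2 or 3 (limma adjusted p of 0.0514 to 0.0711).

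**Figure D4:**
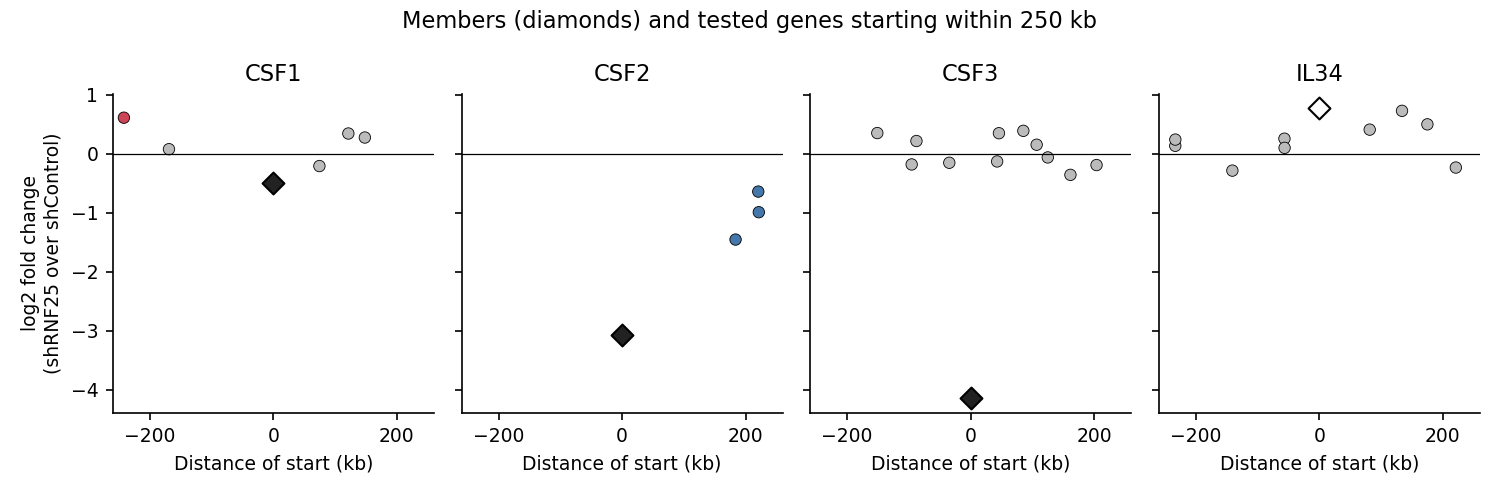
log2 fold change (shRNF25 over shControl) of the tested genes starting within 250 kb of each ligand, against the distance of their start in kb along the strand of the ligand, with blue for lower, red for higher and gray for not called. Diamonds are the ligands themselves, open for IL34, which was not tested. CSF3 at -4.14 has no called neighbor, while 3 genes at 184 to 222 kb from CSF2 are lower.

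The genes whose pattern was most like that of a ligand were found by the root mean square difference of log2 values, each gene centered on its mean, over the 6 libraries. For CSF2 they were the chemokine CXCL2 (0.258), the tryptophan-degrading enzyme KYNU (0.277) and the hypoxia-responsive gene NDRG1 (0.315). For CSF3 they were the chemokine CCL20 (0.298), LINC02015 (0.416) and the chemokine CXCL3 (0.424). For CSF1 they were SMURF1 (0.023), BRINP2 (0.027) and SUN1 (0.030). CXCL2 and CXCL3 are near-identical in part, so their counts could share reads. In these 6 libraries the likeness reflects the difference between groups and says nothing of shared control.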

How the data were processed

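Total RNA of 6 SW839 libraries was sequenced after ribosomal RNA depletion with a stranded kit. The submitters' processing notes name fastp, HISAT2, HTSeq and GRCh38, with versions not given in the sources used here, nor whether counting used strand. The authors deposited a signal, normalized counts for 30267 genes, in which each library's values are reads divided by a size factor of 0.905 to 1.10. Whole reads were recovered by dividing by the smallest step of each library, and 100% of values came out whole within 0.1 reads.

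Log2(normalized count + 1) values were fitted with limma 3.58.1 (lmFit, eBayes with a trend) in R 4.3.3, with group as the single term, over all 16554 genes with at least 10 in at least 3 libraries, with Benjamini-Hochberg adjustment of the p-values. On the recovered reads, edgeR 4.0.16 called 2658 genes and DESeq2 1.42.0 called 2634, against 2607 by limma. The fits were run on simulated counts with 200 changed genes and the same spread in both groups. The libraries here spread less in shRNF25, so that run checks the code alone. Gene positions and 3′ untranslated regions are from GENCODE 29, in which 93.2% of symbols matched. The RefSeq promoter table held 1 of the 4 ligands. Named genes are the 4 ligands, RNF25, up to 4 called genes of each list with the largest change, called neighbors within 250 kb, and the 3 most alike genes; others were named after their values were seen. The ligands and lists were chosen with earlier results of these data known. Alternatives were other pseudocounts (5 and 0.5), filters, scalings and tools, library weights by group, the replicate number as a block, a fold of at least 2 and each library left out. Scaling to total reads, and leaving libraries out of the pair comparison, were added after the data had been seen.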

Additional observations from a re-analysis of the deposited data

How the results depend on the processing

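CSF2, CSF3 and RNF25 stayed lower past the threshold under all 17 alternatives, with log2 fold changes of -3.23 to -2.78, -4.62 to -3.37 and -1.34 to -1.07. CSF1 was lower under all 17 but missed the adjusted p in 4 of them, namely with scaling to total reads (-0.29) and without shRNF25 replicate 1, 2 or 3, and it ranged from -0.52 to -0.46 when 1 library was left out. IL34 stayed above 0, between 0.40 and 1.15. Among all genes, a fold of at least 2 left 513 lower and 893 higher, a filter at 50 left 898 higher of 12755 tested, and without 1 library the counts were 813 to 1269 lower and 748 to 1725 higher, with the smallest number higher without shRNF25 replicate 1. Scaling to total reads gave 684 lower and 2377 higher, or 77.7% higher among the calls against 54.9% with the deposited scaling. In the lists, 8 genes were lower at a fold of at least 2, 14 with scaling to total reads, and 16 to 23 when 1 library was left out.

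Same-numbered libraries did not deviate together, with correlations of -0.06, -0.09 and 0.05 across 16554 genes. Differently numbered libraries had correlations of -0.14 to 0.18. Such weak correlations from 3 libraries per group cannot decide whether libraries were paired in some way. With the replicate block 1193 genes were lower and 1398 higher, and the limma adjusted p was 0.0355 for CSF1, 3.54e-07 for CSF2 and 1.62e-05 for CSF3. IL34 had 2 to 11 reads per library and CSF3 had 2 to 7 in shRNF25, which limits what can be said of the size of their changes.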
